A study of Mus musculus with 14 samples.

Results

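The 9 genes described here guide lymphocytes into, through and out of tissues. They are Ccr7, S1pr1, Klf2, Cxcr4, Itga4, Itgb7, Ccr9, Itgae and Cd69, and they were taken by symbol from the 32285 genes counted in each of 7 single-cell RNA libraries. The rule for choosing them used no measured value, although earlier results of these data were known. Each library came from white nodules of 1 mouse, and a second library of rearranged receptors from the same cells named the clones. All 7 mice were the study's cKO mice, Eif3e fl/fl with Cγ1Cre, a line the study bred with a Rosa26-YFP reporter of Cre activity. Eif3e encodes a subunit of translation initiation factor 3, and Cγ1Cre makes Cre recombinase from the Ighg1 locus, which is active in activated B cells. B cell receptors (BCR) were read in 5 mice, namely mouse 27 (liver, 12 months old), mouse 29 (lung, 12 months), mouse 31 (spleen, 13 months), mouse 33 (thymus, 16 months) and mouse 34 (lung and thymus, 9 months). T cell receptors (TCR) were read in mouse 30 (liver, 14 months) and mouse 32 (spleen, 12 months). By the study's account the liver nodule of mouse 27 was a secondary tumor, grown in a Rag2-/- host after transplantation from a primary nodule. No nodule of a mouse without Cre was analysed here, and every comparison is between cell populations of cKO nodules. All groups share the genotype of the cKO mouse, save any host cells in the nodule of mouse 27, which were not told apart. That genotype is not a deletion in every cell, since by the study's account the lymphocytes of the tumors lacked YFP and still made eIF3e protein.

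Naive lymphocytes enter lymphoid tissue along gradients of CCR7 and CXCR4 ligands and leave it when S1PR1 senses sphingosine-1-phosphate in blood and lymph. KLF2 is a transcription factor that maintains S1pr1 expression, whereas CD69 binds S1PR1 and draws it from the cell surface, so cells with high CD69 tend to stay. The α4 integrin pairs with β1 or β7 to bind VCAM1, fibronectin or MADCAM1, CCR9 responds to CCL25 of the gut and thymus, and αE (CD103) pairs with β7 to hold T cells to epithelial E-cadherin.

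Of 77442 deposited cells, 75503 passed the filters, and the libraries held between 19264039 and 123456962 UMIs (unique molecular identifiers, 1 per captured RNA molecule). The clone of a mouse was the set of cells that carried its most frequent heavy-chain (TCR β-chain) rearrangement or the light-chain (α-chain) rearrangement most often found with it. The B clones held 1782, 323, 3974, 1084 and 1416 cells in mice 27, 29, 31, 33 and 34. The T clone held 2107 cells in mouse 30 and 4868 in mouse 32. Bystander T cells, the T-like cells outside the clone, numbered 392 to 5119 in the 7 mice. In the TCR mice they were cells with another TCR. In the BCR mice no TCR was read, and all T-like cells outside the clone were taken. No cluster was named as NK cells, so any NK cells in T-like clusters were not set apart. With T cells taken by marker UMIs, the bystander group of mouse 29 held 1549 cells in place of 5119. B clone cells were far deeper than bystander T cells, with median UMI counts of 9367 to 13763 against 1189 to 3276.5 per cell. T clone cells were closer to their neighbours, with medians of 1992 against 1933 in mouse 30 and 3805 against 3033.5 in mouse 32. Both T clones were of CD4 type, with Cd4 at 179.2 and 168.1 counts per 1000000 UMIs (CPM) and Cd8a at 0 and 0.722 CPM in mice 30 and 32. No hepatocyte-like cluster was found in either liver nodule. Between 78 and 278 cell barcodes recurred in each of the 21 pairs of libraries. Each site was read in 1 or 2 mice, so that site, mouse, age and receptor cannot be told apart, and p-values measure only the spread between these mice.

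Across the nodules the B clones carried transcripts of Klf2, Cd69 and Cxcr4 in every mouse and were uneven in Ccr7 and S1pr1. Ccr7, the receptor that brings lymphocytes into T zones, was at 2.37, 75.4, 0.123, 59.1 and 63.1 CPM in mice 27, 29, 31, 33 and 34. The 3 clones of the lung, thymus and lung-and-thymus nodules were therefore high and the liver and spleen clones low, with only 6 UMIs in all 3974 cells of the spleen clone. S1pr1, the egress receptor, followed another order, at 69.0, 253, 13.1, 46.2 and 6.84 CPM in the same mice. The lung clone of mouse 29 was highest, and the lung-and-thymus clone of mouse 34 lowest, although both were high in Ccr7.

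Klf2, the transcription factor upstream of S1pr1, was at 150, 154, 887, 222 and 317 CPM in those clones. The spleen clone was thus highest in Klf2 while next to lowest in S1pr1. Spleen nodules held the highest Klf2 in the T clones and bystander T cells too. Other cells gave a mixed picture. Neutrophil-like cells were at 1340 CPM in the liver nodule of mouse 30 and 485 in the spleen nodule of mouse 32. In mouse 31 only 37 such cells were found, and no level was taken. Macrophage-like cells were highest in the spleen nodule of mouse 31, at 978 CPM, followed by 652 in mouse 30. In the spleen nodule of mouse 32 they were at 329 CPM. The T clone of the spleen nodule was at 541 CPM against 41.5 in the liver nodule, and bystander T cells were at 1366 and 764 CPM in the spleen nodules of mice 31 and 32 against 94.3 to 569 in the 5 other nodules. Cxcr4, the receptor for CXCL12, ranged from 42.6 CPM in the thymus clone to 172 in the lung clone, and in bystander T cells from 83.8 CPM in mouse 30 to 703 in mouse 31. No test was made between sites.

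**Figure D1:**
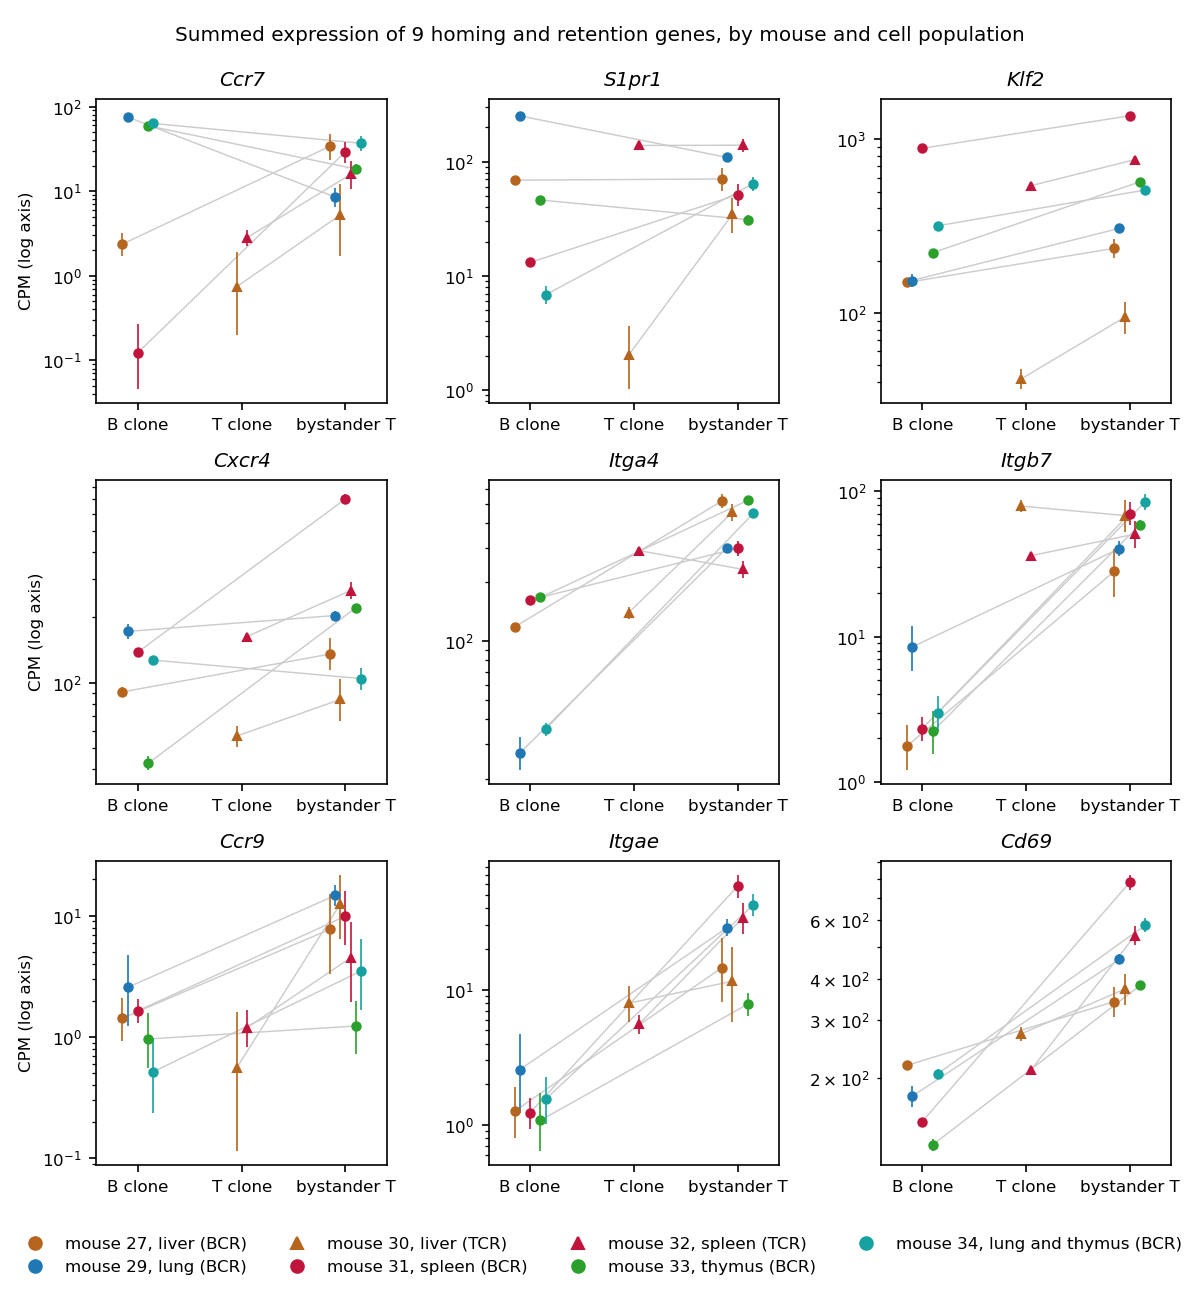
CPM of each of the 9 genes on a log axis in B clones, T clones and bystander T cells, with 95% Poisson intervals that cover counting error only. Each point is 1 mouse coloured by site, and lines join the populations of a mouse. The 5 B clones sit below all bystander T cells for Itga4, Itgb7, Itgae and Cd69, and spread from 0.123 to 75.4 CPM for Ccr7.

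Compared with bystander T cells, the B clones held lower shares of the integrin transcripts and of Cd69, and did not differ detectably in Ccr7 or S1pr1. Of the 9 genes, 6 passed the test, and all 6 were lower in the clones, namely Itga4, Itgb7, Itgae, Ccr9, Klf2 and Cd69. Among the 14509 genes tested, 37.8% passed in either direction and 17.2% passed as lower, so calls are common in this comparison of B with T cells. The test was edgeR's quasi-likelihood test on UMIs summed per mouse and population, with the mouse as a block and Benjamini-Hochberg adjustment over all genes tested. For 4 of the 9 genes (Itga4, Itgb7, Itgae and Cd69) all 5 B clones lay below all 7 bystander T sums, as did 9.96% of the genes tested.

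Among the integrins, Itgb7, the β7 chain, was the most different. It stood at 1.76, 8.46, 2.33, 2.23 and 2.99 CPM in the B clones of mice 27, 29, 31, 33 and 34, and at 28.1, 40.3, 70.3, 59.0 and 84.9 CPM in the bystander T cells of those mice. The groups were far apart, with a log2 fold change of -4.01 (SE 0.40, adjusted p = 0.000270). Itgae, the αE chain that pairs only with β7, was at 1.08 to 2.56 CPM in the B clones and 7.83 to 58.0 CPM in bystander T cells (log2 fold change -3.89, SE 0.48, adjusted p = 0.000652). Fibroblast-like cells, which should lack both genes, held Itgb7 at 3.18 and 3.96 CPM and Itgae at 1.17 and 2.38 CPM in mice 29 and 33. The B clone levels were near or below these, except for Itgb7 (8.46 CPM) and Itgae (2.56 CPM) of mouse 29. Itga4, the α4 chain, remained well detected in the clones, at 118, 26.9, 163, 167 and 35.6 CPM, beside 520, 300.3, 298, 523 and 448 CPM in bystander T cells of the same mice. Its log2 fold change was -2.18 (SE 0.51, adjusted p = 0.0122), and the lung and the lung-and-thymus clones were the lowest.

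The windows of 250 bases before the starts of the genes for the α4 and β7 chains are shown because these chains form the integrin α4β7, and KLF proteins are known to bind CACCC boxes. Promoter windows of RefSeq on GRCm38.p6 matched 5 of the 9 genes (Klf2, Cxcr4, Itga4, Itgb7 and Ccr9). The capitals mark CACCC, or GGGTG where the motif lies on the other strand. Itga4 is at chr2:79255176-79255425 on the plus strand and Itgb7 at chr15:102231936-102232185 on the minus strand, each printed 5′ to 3′ along its gene.
Itga4: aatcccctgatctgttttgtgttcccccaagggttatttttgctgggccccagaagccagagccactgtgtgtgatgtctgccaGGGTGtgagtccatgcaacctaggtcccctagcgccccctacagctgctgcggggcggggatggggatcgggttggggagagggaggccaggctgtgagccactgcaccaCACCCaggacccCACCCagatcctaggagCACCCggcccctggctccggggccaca
Itgb7: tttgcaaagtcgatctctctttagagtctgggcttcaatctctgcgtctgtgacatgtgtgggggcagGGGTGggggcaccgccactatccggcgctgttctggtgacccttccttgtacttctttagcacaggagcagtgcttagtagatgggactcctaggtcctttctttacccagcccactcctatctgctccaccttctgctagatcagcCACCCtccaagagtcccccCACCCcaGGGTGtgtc
Each of these windows held 4 matches over both strands, and all 5 matched genes held at least 1. The motif is common, since 17087 of 32851 promoter windows (52.0%) held it, and a match is a description of the letters and not of a bound site.

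Ccr9, the receptor for the gut and thymus chemokine CCL25, was rare in the B clones, at 1.43, 2.56, 1.65, 0.963 and 0.517 CPM in mice 27, 29, 31, 33 and 34. In bystander T cells of the same mice it was at 7.75, 14.7, 9.95, 1.23 and 3.51 CPM, so the bystander cells of the thymus nodule fell within the range of the clones. The log2 fold change of -1.96 (SE 0.52, adjusted p = 0.0186) was no longer called when mouse 27, 29, 31 or 34 was left out (adjusted p = 0.0512 to 0.0602). Cxcr4 did not pass, with a log2 fold change of -0.87 (SE 0.40, adjusted p = 0.122). It was called by DESeq2 (adjusted p = 0.0396), after cells were thinned to equal depth (adjusted p = 0.0396) and without mouse 34 (adjusted p = 0.0467).

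Cd69, the retention marker, was at 219, 176, 148, 126 and 206 CPM in the B clones and at 341, 458, 783, 382 and 581 CPM in bystander T cells of the same mice. Every clone was lower than its own bystander T cells, and the log2 fold change was -1.33 (SE 0.24, adjusted p = 0.00370). Klf2 had a smaller difference, of -0.69 on the log2 scale (SE 0.19, adjusted p = 0.0223), and the 2 groups overlapped across mice although the clone was lower in 5 of 5. The Klf2 call was lost without mouse 29 (adjusted p = 0.0600) or mouse 33 (adjusted p = 0.0593), with no filter on low counts (0.0539) and with T cells taken by marker UMIs (0.167). It was also lost when bystander T cells were limited to CD4 cells, a setting chosen after the data were seen (log2 fold change -0.19, adjusted p = 0.553), as was the Ccr9 call (log2 fold change -1.68, adjusted p = 0.129).

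Ccr7 and S1pr1 gave log2 fold changes of -0.16 (SE 1.67, adjusted p = 0.953) and -0.43 (SE 0.77, adjusted p = 0.692). Their spread between clones was wide, and Ccr7 changed sign without mouse 27 (log2 fold change 0.88) or mouse 31 (log2 fold change 1.00), and S1pr1 without mouse 34 (log2 fold change 0.09). Scaling mattered for the direction of calls over all genes, since 54.5% of calls were higher in clones with TMM scaling and 42.7% with library sizes only, and the median of all genes moved from 0.11 to -0.07 on the log2 scale.

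**Figure D2:**
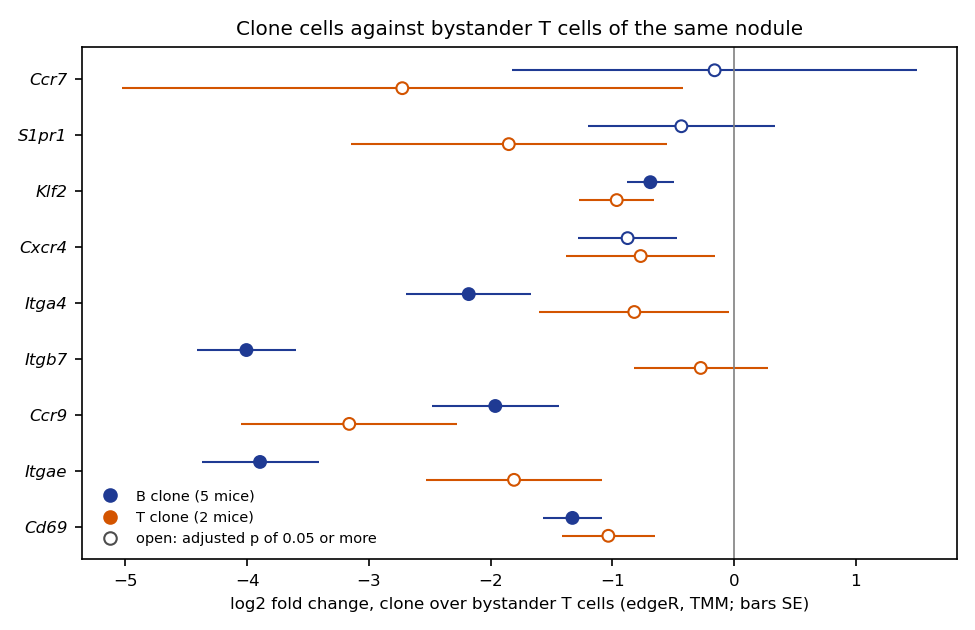
Fitted log2 fold change of each gene, clone over bystander T cells, with bars for the SE, for B clones (5 mice) and T clones (2 mice). Open points did not pass an adjusted p of 0.05. Itgb7 (-4.01) and Itgae (-3.89) of the B clones lie farthest left of 0 among the filled points, and all T clone points are open.

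Shares of UMIs and molecules per cell gave different pictures for Klf2 and Cd69, since B clone cells held more UMIs in all. Klf2 averaged 1.53, 1.85, 10.8, 3.40 and 3.90 UMIs per B clone cell in mice 27, 29, 31, 33 and 34, and 0.439, 0.414, 2.66, 2.39 and 1.69 UMIs per bystander T cell. Per cell the clone was higher in 5 of 5 mice, although as a share of UMIs it was lower. Cd69 likewise averaged 2.23, 2.13, 1.81, 1.93 and 2.54 UMIs per B clone cell against 0.637, 0.618, 1.52, 1.60 and 1.92 per bystander T cell. Ccr9 was lower as CPM in 5 of 5 mice and higher per cell in 4 of 5, with a mean log2 ratio of 0.268. Clone and bystander were nearly equal per cell in mouse 27 (0.0146 against 0.0145) and mouse 31 (0.0201 against 0.0194). Ccr9 in the B clones was also close to background, since fibroblast-like cells held it at 1.38 and 0.792 CPM in mice 29 and 33. Cxcr4 was lower as CPM in 4 of 5 mice and higher per cell in 4 of 5 (mean log2 ratios -1.05 and 1.35). S1pr1 was lower as CPM in 3 of 5 mice and higher per cell in 4 of 5 (mean log2 ratios -0.691 and 1.71). Itgae was lower in the clones on both scales in 5 of 5 mice, with a mean log2 ratio per cell of -1.63, and Itgb7 was higher per cell in the clone of only 1 of 5 mice (mean log2 ratio -1.74). Itga4 per cell was higher in the clone in 3 of 5 mice, with a mean log2 ratio of 0.05, although as CPM it was lower in 5 of 5. More RNA per cell and a higher rate of capture cannot be told apart in these counts, and no test was made of the values per cell.

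**Figure D3:**
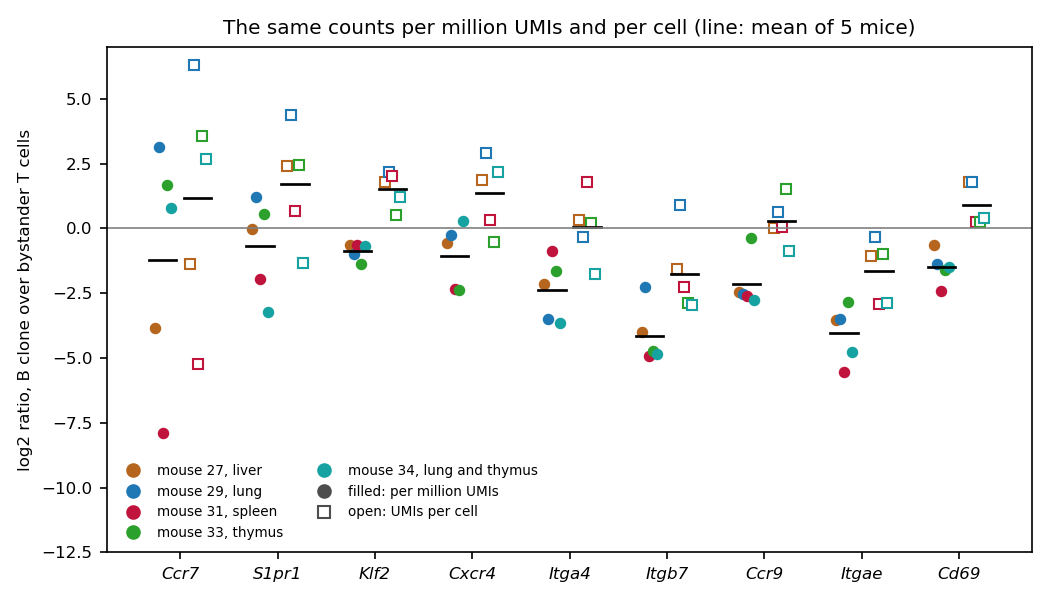
Log2 ratio of B clone to bystander T cells within each of 5 mice, as CPM (filled circles) and as UMIs per cell (open squares), with a line at the mean. For Klf2 and Cd69 all filled points lie below 0 and all open points above 0, and for Itgae both kinds lie below 0.

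The T clones, compared with bystander T cells of the same nodules, were lower as CPM in both mice in Ccr7, Klf2, Cxcr4, Ccr9, Itgae and Cd69. S1pr1 was lower in mouse 30 and nearly equal in mouse 32 (139.1 against 139.8 CPM), and Itga4 and Itgb7 were divided. In UMIs per cell the clone of mouse 32 was higher in S1pr1 (0.792 against 0.494) and Klf2 (3.08 against 2.70). Itgb7 was higher per cell in both T clones. With 2 mice no gene of the 9 passed. The background was equally sparse, with 0.0345% of 14509 genes called by edgeR. At an unadjusted p under 0.05 edgeR listed 808 genes, and DESeq2 called 149 after adjustment, among them Ccr9 (DESeq2 adjusted p = 0.0424). The 2 clones differed from each other by site, mouse or clone, which cannot be told apart.

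Ccr7 was at 0.738 CPM (4 UMIs) in the liver T clone of mouse 30 and 2.82 in the spleen T clone of mouse 32, against 5.24 (5 UMIs) and 15.8 CPM in bystander T cells (log2 fold change -2.73, SE 2.31). The log2 ratios of CPM were close in mice 30 and 32, at -2.83 and -2.49, whereas the B clones of the same fit ran from 0.123 to 75.4 CPM. Ccr9 was at 0.553 and 1.19 CPM in the clones against 12.6 and 4.51 in bystander T cells (log2 fold change -3.16, SE 0.89). Both genes were thus scarce in both T clones. S1pr1 separated the T clones from each other, at 2.03 CPM in mouse 30 and 139 in mouse 32, beside 34.6 and 140 CPM in their bystander T cells. Klf2 moved with it, at 41.5 and 541 CPM in the clones and 94.3 and 764 CPM in the bystander cells (log2 fold change -0.96, SE 0.31).

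Retention and adhesion genes remained well detected in the T clones, apart from Itgae. Cd69 was at 272 and 212 CPM in mice 30 and 32, against 372 and 540 in bystander T cells (log2 fold change -1.03, SE 0.38). Itgb7 was at 79.1 and 36.1 CPM in the clones and 68.1 and 50.7 in bystander T cells, so the liver clone was above and the spleen clone below its neighbours. Itga4 was also divided, at 140 and 290.2 CPM in the clones against 455 and 233 in the bystander T cells. Cxcr4 was at 56.8 and 163 CPM against 83.8 and 266. Itgae was at 7.93 and 5.56 CPM against 11.5 and 33.8 CPM (log2 fold change -1.81, SE 0.73). Adjusted p-values of the 9 genes in edgeR's test ran from 0.442 to 1. Transcripts of other cells also differed between these sums, with neutrophil markers at a summed 817 and 1843 CPM in the T clones of mice 30 and 32 against 146 and 192 in bystander T cells, and NK markers at 12.7 and 29.02 against 326 and 2116. Erythroid markers were at 914 CPM in the T clone of mouse 32 against 67.7 in its bystander T cells, and erythroid-like cells of that mouse held Itga4 at 310 CPM. Their part in these values was not tested.

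Itgb7 set the T clones apart from the B clones. The log2 fold change of clone over bystander T cells was higher in T clones by 3.73 (SE 0.69, adjusted p = 0.0347), and Itgb7 was the single gene of the 9 that passed. For B clones that fold change sets B cells against T cells, and for T clones it sets T cells against T cells, so it is not an effect of clonality alone. Of all genes tested, 2.00% passed. The fold stayed between 3.47 and 4.14 when 1 mouse was left out, but the call was lost without mouse 27 (adjusted p = 0.0774), 30 (0.269), 31 (0.0569), 32 (0.162), 33 (0.0569) or 34 (0.0764). It was also lost with T cells taken by marker UMIs (0.0508) and with the authors' own clonotypes (0.0536). Itgae, the partner chain of β7, differed by 2.09 (SE 0.83, adjusted p = 0.240).

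Against the other B cells of the same nodule, meaning B-like cells with a BCR call outside the clone, the B clones held a lower share of Klf2 UMIs in 4 of 4 mice. Only 32, 41, 27 and 24 such cells were found in mice 29, 31, 33 and 34. B-like cells with no BCR call were far more numerous, could belong to either side and were left out of both, and Ccr9 and Itgae were too sparse to test. Klf2 was at 154, 887, 222 and 317 CPM in the clones and at 270, 2713, 343 and 813 CPM in the other B cells. Each clone was thus lower than its neighbours as a share, and the spleen nodule was highest in both. Clone cells were deeper, with median UMI counts of 11273, 11199.5, 13763 and 11279.5 against 6165.5, 2043, 7993 and 9447. Klf2 averaged 1.85, 10.8, 3.40 and 3.90 UMIs per clone cell, and the other B cells held 50, 376, 83 and 206 Klf2 UMIs in all. Per cell the clone was lower in mouse 34 only. The log2 fold change of -1.18 (SE 0.23) did not pass in edgeR (adjusted p = 0.0801). It passed without mouse 29 (adjusted p = 0.0323), without mouse 31 (adjusted p = 0.0220), with no filter on low counts (adjusted p = 0.00997) and in DESeq2 (adjusted p = 0.000144).

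Of the 7 members tested there, 0 passed, and 0.0758% of 9229 genes did. At an unadjusted p under 0.05 edgeR listed 993 genes, and DESeq2 called 131 after adjustment. Ccr7 was at 53.9, 397, 66.1 and 98.7 CPM in the other B cells, beside 75.4, 0.123, 59.1 and 63.1 in the clones. In the spleen nodule, 55 UMIs of Ccr7 came from 41 other B cells and 6 from 3974 clone cells. In the other 3 nodules the clones were close to their neighbours (log2 fold change over all 4 mice -1.56, SE 2.47, adjusted p = 0.876). Cxcr4 in the other B cells was at 156, 1169, 33.03 and 205 CPM, and Cd69 at 254, 743, 202 and 138 CPM. Their log2 fold changes in the clones were -0.96 (SE 0.53, adjusted p = 0.571) and -0.84 (SE 0.40, adjusted p = 0.484). Itgb7 in the other B cells was at 16.2, 0, 8.26 and 11.8 CPM, from 3, 0, 2 and 3 UMIs, against 8.46, 2.33, 2.23 and 2.99 CPM in the clones. Itga4 was at 129, 115.5, 182 and 98.7 CPM in the other B cells, against 26.9, 163, 167 and 35.6 CPM in the clones.

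Within the bystander T cells, those with Cd4 UMIs held more Cxcr4 than those with Cd8a or Cd8b1 UMIs. Cxcr4 in CD4 cells was at 150, 161, 92.6, 804, 284, 243 and 114 CPM in mice 27, 29, 30, 31, 32, 33 and 34. In CD8 cells of these mice it was at 142, 106, 16.8, 200.3, 186, 168 and 85.0 CPM. The CD8 gate of mouse 30 held 23 cells and 59433 UMIs, so its 16.8 CPM stands for 1 UMI. CD4 cells were higher in 7 of 7 mice, with a log2 fold change of CD8 against CD4 of -0.66 (SE 0.18, adjusted p = 0.0484). This was the only call among the 6 genes tested, where 5.26% of 5932 genes passed, and it was lost in 11 of 16 alternatives. Leaving out any single mouse other than mouse 27 gave an adjusted p of 0.0582 to 0.112, and leaving out the TCR mice 0.181.

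Cd69 ran the other way, at 191, 375, 307, 643, 487, 334 and 504 CPM in CD4 cells and 301, 455, 353, 955, 566, 338 and 554 CPM in CD8 cells. CD8 cells were higher in 7 of 7 mice, but the log2 fold change of 0.36 (SE 0.11) did not pass in edgeR (adjusted p = 0.0777) and did in DESeq2 (adjusted p = 0.0300). Itgae, too sparse for the filter, had 147 UMIs in CD4 cells and 50 in CD8 cells over the 7 mice, and was higher in CD4 cells in 6 of 7. Ccr7 was also too sparse, with 109 UMIs in CD4 and 224 in CD8 cells, and was higher in CD8 cells in 5 of 7 mice. Without the filter the log2 fold change of Itgae was -1.87 (adjusted p = 1.25e-08). Klf2 was higher in CD8 cells in 6 of 7 mice (log2 fold change 0.26, SE 0.24), S1pr1 in 3 of 7 (-0.51, SE 0.43), Itga4 in 4 of 7 (0.31, SE 0.13) and Itgb7 in 2 of 7 (-0.33, SE 0.20). The CD8 gate also held more NK marker UMIs, at 343 to 4498 CPM against 57.3 to 432 in the CD4 gate, and the CD8 gate of mouse 30 held 23 cells. The part of NK cells was not tested. With library sizes only, 16.6% of the calls over all genes were higher in CD8 cells, against 30.4% with TMM scaling.

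**Figure D4:**
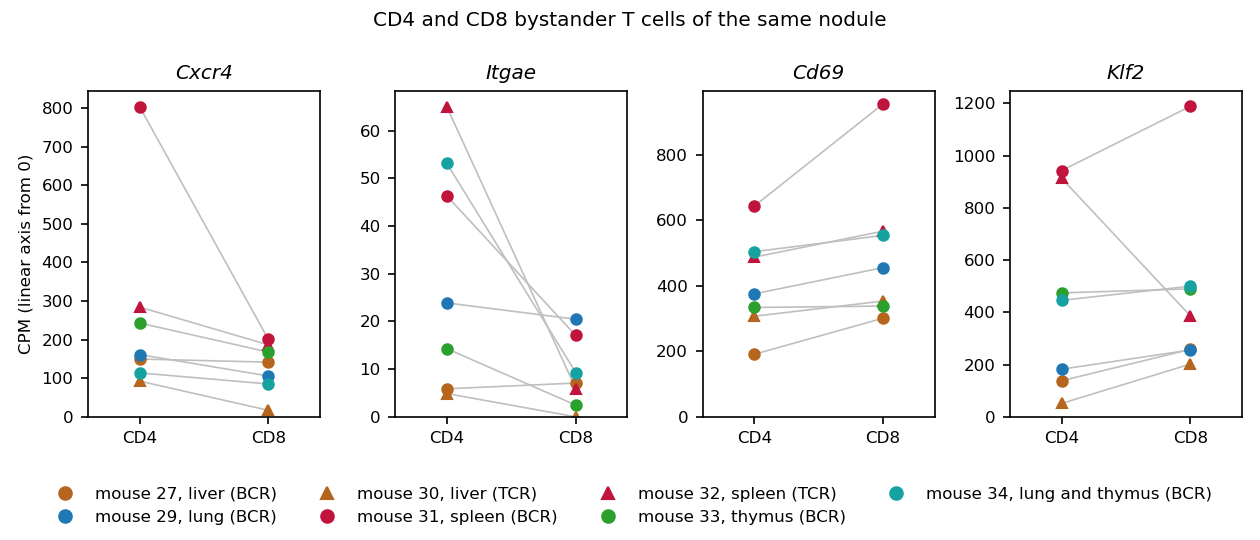
CPM of Cxcr4, Itgae, Cd69 and Klf2 on linear axes from 0 in CD4 and CD8 bystander T cells, with a line joining both gates of each mouse. Lines for Cxcr4 fall and lines for Cd69 rise from CD4 to CD8 in all 7 mice.

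Bystander T cells of TCR nodules did not differ detectably from those of BCR nodules in any of the 9 genes. Over 10308 genes 0.00970% passed, which is 1 gene, with 290 at an unadjusted p under 0.05 and 6 called by DESeq2. Log2 fold changes of TCR against BCR nodules ran from -1.15 for Ccr7 (SE 0.63) to 0.45 for S1pr1 (SE 0.56), all with an adjusted p of 0.994. Ccr7 was at 5.24 and 15.8 CPM in the TCR nodules and at 8.53 to 36.8 in the BCR nodules. The groups overlapped for S1pr1 as well, at 34.6 and 140 CPM against 31.2 to 109 CPM.

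Some of the 9 genes varied together over the 14 sums of clones and bystander T cells. Itgae and Cd69 had a Pearson r of 0.95, and Klf2 and Cxcr4 of 0.73, whereas Klf2 and S1pr1 had 0.22 and Ccr7 and S1pr1 had 0.24. Among 14509 genes, the pattern of Itgb7 was closest to Il27ra (r = 0.99) and Rarg (r = 0.98), and that of Itga4 to Aebp2 (r = 0.92) and Cyld (r = 0.92). Klf2 was closest to Egr1 (r = 0.86) and Cxcr4 to Zfp703 (r = 0.87) and Jund (r = 0.82). Ccr7 was closest to Bach2 (r = 0.87) and S1pr1 to Slc17a9 (r = 0.82). These are descriptions over sums that share mice, libraries and the contrast of B with T cells.

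A wider list of 39 trafficking genes outside the 9 was chosen with earlier results of these data known. It includes receptors of effector and regulatory T cells, so its direction against T cells is a description and not separate support. The B clones were mostly lower than bystander T cells, with 24 lower and 5 higher of 38 tested. The median log2 fold change was -2.70 against 0.11 for all genes, where 37.8% of all genes tested were called and 17.2% called lower. Of 10 chemokine receptors, 6 were lower and 2 higher. Ccr8, Cxcr6 and Ccr2, receptors of effector and regulatory T cells, had log2 fold changes of -7.38, -7.15 and -6.01, and Cxcr5, the receptor for B cell follicles, had a log2 fold change of 1.46 (SE 0.47, adjusted p = 0.0413). The Cxcr5 call was lost in 9 alternatives, among them leaving out mouse 27 (0.112), 31 (0.0717), 33 (0.119) or 34 (0.136) and both other scalings (0.0551 and 0.0689). Of 6 lipid receptors tested, 4 were lower and 1 higher, with S1pr4 at -5.18 and Gpr183, which positions B cells at follicle edges, at -2.76. The Gpr183 call was lost without mouse 27 (adjusted p = 0.0568) or 29 (0.0651) and with no filter (0.0614). Among 10 selectins, selectin ligands and integrins, 6 were lower and 1 higher. Itgb1, the other partner of α4, gave -0.29 (SE 0.45, adjusted p = 0.643), unlike Itgb7. Among 12 signalling and transcription genes 8 were lower and 1 higher, with Rgs16 at -3.54, Klf3 at -3.54 and Runx3 at -2.75. In T clones 1 of the 38 was called, Ccr2 (log2 fold change -4.90, adjusted p = 0.0296). That call was lost in 8 alternatives, among them leaving out mouse 30 (0.264), 31 (0.0574), 32 (0.358), 33 (0.0619) or 34 (0.0783), with log2 fold changes of -3.39 to -5.47 over the 8.

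The ligands of these receptors were unevenly present in the nodules, counted over all cells of each library. Cxcl12, the ligand of CXCR4, was at 118 CPM in the lung nodule of mouse 29 and 19.9 in the thymus nodule, against 1.27 CPM or less in the liver and spleen nodules. It was at 13.0 CPM in the lung-and-thymus nodule. Ccl21a, a ligand of CCR7, was at 38.0 CPM in the lung, 9.45 in the thymus and 4.69 in the lung-and-thymus nodule, at 0 in mice 27, 30 and 32, and at 1 UMI in mouse 31. The 3 B clones with the higher Ccr7 were thus in the nodules with the most Ccl21a, over 5 B clones and with no test. One of the other nodules, that of mouse 27, grew in a Rag2-/- host, and any host cells were counted with it. Vcam1, bound by α4 integrins, was at 162 CPM in the lung and 9.86 in the spleen nodule of mouse 31. Madcam1, the ligand of α4β7, was under 1 CPM in all 7. These levels depend on how many stromal cells each library held, since fibroblast-like cells gave 70.9% of Cxcl12 UMIs and endothelial-like cells 94.7% of Ccl21a UMIs in mouse 29, and that dependence was not tested.

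**Figure D5:**
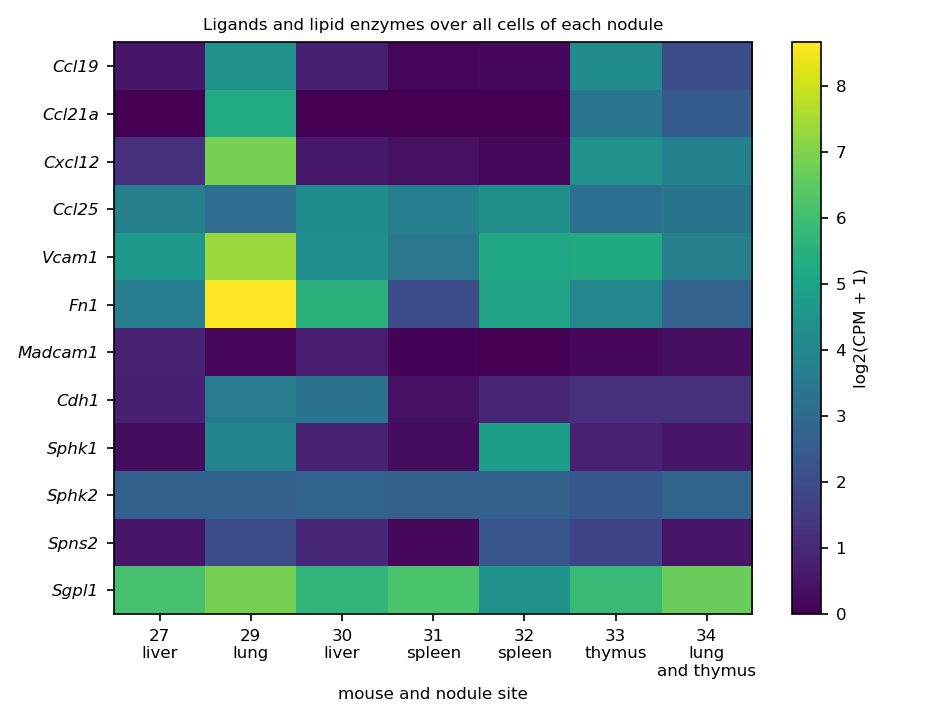
Level of 12 ligands and sphingosine-1-phosphate enzymes and carriers in each nodule, as log2 of CPM plus 1 over all cells of the library, with mice and sites in columns. Brighter cells are higher. Ccl21a and Cxcl12 are brightest in the lung nodule (38.0 and 118 CPM) and near 0 in both spleen nodules.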

How the data were processed

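The authors deposited, for each of 7 nodules, a matrix of raw UMI counts per gene and cell and a table of receptor contigs with read and UMI counts. Per the labels' processing notes the builds were GRCm38 and mm10, and by the study's methods the contigs came from SeekSoulTools. The aligner and the annotation are not given in the sources used here. The study names a SeekOne 3′ kit for single-cell RNA and a 5′ kit for receptor libraries, and the labels name only the 5′ kit, so which kit made these matrices was not settled and levels are not compared between genes. The matrices held only called cells, with at least 500 UMIs each.

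Cells with at least 201 UMIs, at least 101 genes and at most 10% mitochondrial UMIs were kept. Cells were clustered with scanpy 1.11.5 and leidenalg 0.10.2 on 2000 variable genes, leaving the 9 members out (30 components, resolution 1.0), into 31 clusters. Clusters were named from 3 or more markers of a class, and 6 stayed unnamed. A cluster holding markers of T and of B cells was left unnamed by a rule added after it was seen. No doublet caller was run, and removal of 244 cells with T and B marker UMIs was an alternative. Members and gene lists were chosen with earlier results of these data known.

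Raw counts were summed per mouse and population (at least 20 cells) and tested in R 4.3.3 with edgeR 4.0.16 (filterByExpr, TMM scaling, robust quasi-likelihood fit, Benjamini-Hochberg adjustment). The code was also run on counts simulated from the model's own fitted means and spreads. Such a run cannot show whether that model holds for these data. The mouse was a block except between TCR and BCR mice. The pairing is that of 1 library, and the deviations of both sums of a mouse correlated with r from 0.224 to 0.384. The SE is the log2 fold change divided by the square root of F. CD4 cells had a Cd4 UMI and no Cd8a or Cd8b1 UMI, and CD8 cells the reverse. Similarity of pattern was Pearson's r of log2 of CPM plus 10. Intervals are exact Poisson intervals at 95%.

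Named were all 9 members, and of the wider lists up to 4 genes of each role past the threshold by size of change, and Itgb1 and Cxcr5 always, except genes whose results are not reported here. Alternatives were DESeq2 1.42.0, other scalings, no filter, each mouse left out, no block, cells thinned to 1000 UMIs, other definitions of T cells, clones and bystanders, and the mice of 1 receptor alone. Clone cells of their own class, CD4 bystander T cells only and leaving out the TCR mice were added after the data were seen.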

Additional observations from a re-analysis of the deposited data

Results flagged for a closer look

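Of 45 groups of 4 to 10 samples, 11 held a sample whose gap to its neighbour was large for the range of the group. By chance about 1 in 20 groups would be flagged if values were normal and groups independent. The values here were untransformed CPM, each flagged value was the highest of its group, and the groups share mice and cells. The number of flags therefore cannot be set against that rate. Mouse 31 (spleen) was the flagged sample in 7 of the 11 groups. Its B clone was at 886.6 CPM of Klf2 (next 317.3), its bystander T cells at 702.5 CPM of Cxcr4 (next 266.1) and their CD4 cells at 803.6 (next 284.3). Its CD8 cells were at 1189 CPM of Klf2 (next 500.1) and 954.8 of Cd69 (next 566.4). Its 41 other B cells were at 396.9 CPM of Ccr7 (next 98.66) and 1169 of Cxcr4 (next 205.2). The lung B clone of mouse 29 stood apart in S1pr1, at 252.9 CPM (next 69.04), and in Itgb7, at 8.465 CPM (next 2.988). Its sum of 323 cells also held transcripts of other cells. Neutrophil markers were at a summed 530.5 CPM there, against 0.6896 to 3.906 in the other B clones. Endothelial markers were at 75.16 CPM, against 5.107 to 23.91. The part of these cells in its S1pr1 and Itgb7 was not tested. CD4 bystander T cells of mouse 32 were at 251.8 CPM of S1pr1 (next 116.5). Other B cells of mouse 34 held Itgae at 3.946 CPM, which is 1 UMI, beside 0 in the other 3 mice. The log2 fold change of Itgb7, clone over bystander T cells, was higher in T clones than in B clones by 3.73 in a test of the difference itself. That call was lost in 8 of 19 alternatives.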

How the results depend on the processing

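With no replicate block, the fit without pairing by mouse, edgeR called 5839 genes for B clones against bystander T cells (5489 with it), 10 for T clones (5 with it), 2850 for the difference of T and B clone effects (290), 8 for CD8 against CD4 cells (312) and 0 for B clones against other B cells (7). The Klf2 call in B clones was lost without the block (adjusted p = 0.652), and the Itgae difference between T and B clones gained (0.0376). For B clones against bystander T cells every count was within 1.5 times, with 4010 to 5067 calls when 1 mouse was left out. For T clones, counts were 149 in DESeq2, 26 each with no filter, thinned cells or mixed-lineage cells removed, 55 in TCR mice only, 8 with clone cells of their own class, 3 with the authors' clonotype, 1 with T cells by marker UMIs, 0 each with CD4 bystander T cells only or without requiring a TCR call, and 0 to 8 with 1 mouse left out. For the difference of effects they were 1183 in DESeq2, 445 thinned, 465 with own-class clone cells, 545 without requiring a TCR call and 0 to 331 with 1 mouse left out. For CD8 against CD4 cells they were 863 with no filter, 166 by marker UMIs, 201 without the TCR mice and 158 to 471 with 1 mouse left out. For B clones against other B cells they were 131 in DESeq2, 16 with library sizes only, 193 with no filter, 4 thinned and 36 to 82 with 1 mouse left out. For bystander T cells of TCR against BCR mice they were 6 in DESeq2, 0 each thinned, by marker UMIs or with mixed-lineage cells removed, and 0 to 6 with 1 mouse left out.

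Signs turned as follows, all in log2 fold changes and none past the threshold, with the range over leaving out 1 mouse given first. In B clones against bystander T cells, Ccr7 ran from -1.49 to 1.00 (positive without mouse 27 or 31) and was 0.383 thinned, 1.11 with no block and 0.523 against CD4 cells. S1pr1 ran from -0.900 to 0.0899 (positive without mouse 34) and was 0.00198 by marker UMIs and 0.239 with no block, and Itgb1 ran from -0.645 to 0.160 (positive without mouse 29). In T clones, Itga4 ran from -1.79 to 0.200, Cxcr5 from -2.67 to 0.344, Itgb7 from -0.611 to 0.119 and Itgb1 from -0.0507 to 0.703, each turned by leaving out mouse 30 or 32, the only T clones. Against other B cells, Itga4 was 0.194 thinned, Itgb1 ran from -0.530 (without mouse 31) to 0.862, and Cxcr5 ran from -0.361 (without mouse 34) to 0.306 and was -0.0515 in DESeq2, -0.0409 with its size factors, -0.00363 thinned and -0.108 with the authors' clonotype. Between TCR and BCR mice, S1pr1 ran from -0.969 (without mouse 32) to 1.15, Itgb1 from -0.129 to 0.502 (-0.0540 by marker UMIs) and Cxcr5 from -1.11 to 0.755 (-0.975 without requiring a TCR call). The median of all genes for the difference of effects moved from 0.0351 to 0.348 with library sizes only. The causes were not tested. Depth limits Ccr7, Ccr9 and Itgae in CD8 and CD4 cells, and Ccr9 and Itgae in other B cells, which were too sparse for the filter.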

Other observations

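Some members were also carried by cells that are not lymphocytes. Endothelial-like cells, in which S1PR1 and KLF2 hold the vessel barrier and sense flow, held S1pr1 at 526.4, 307.1 and 357.2 CPM and Klf2 at 932.4, 458.1 and 444.2 CPM in the nodules of mice 29, 33 and 34. Their S1pr1 was above that of the B clone and the bystander T cells of each of these nodules. Macrophage-like cells of mice 32 and 29 held Itgb7 at 134.0 and 57.76 CPM. No test was made of these values.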
